A study of Mus musculus with 12 samples.

Results

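The 8 mouse Smad genes, Smad1, Smad2, Smad3, Smad4, Smad5, Smad6, Smad7 and Smad9, were chosen by family name out of 21627 protein-coding genes on chromosomes 1 to 19 and X. The histone marks H3K4me3 and H3K4me1 were read over each gene plus 1 kb at either end, and H3K4me1 also within 50 kb, in each library. The libraries were made by Cut & Run, in which an antibody brings a nuclease to its target on chromatin and the DNA cut free there is sequenced. The cells were mouse embryonic fibroblasts, grown in DMEM with fetal bovine serum, either knocked out for Fbxw7 (KO) or wild type (WT). Fbxw7 encodes the subunit with which an SCF ubiquitin ligase picks the proteins it marks for degradation. Antibodies to MLL4, H3K4me1 and H3K4me3 were each used in 2 libraries per genotype, giving 12 libraries. The labels state neither the deleted part of Fbxw7, nor how it was deleted, nor whether the 2 libraries of a genotype came from separate cultures or embryos. Any p-value therefore measures the spread between these libraries, which may be technical, and with 2 against 2 no exact permutation test can give a p below 0.333. For that reason no difference below is called by that test, and each count of genes lower or higher in both KO libraries is set beside the same share over all genes.

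Smads are the intracellular transducers of the TGF-beta superfamily. Ligand-bound receptor kinases phosphorylate the receptor-regulated Smads, which join the common partner Smad4, enter the nucleus and bind DNA with other factors. Smad1, Smad5 and Smad9 serve the BMP branch, and Smad2 and Smad3 serve the TGF-beta and activin branch. Smad6 and Smad7 are inhibitory Smads that are themselves induced by the pathway and act as feedback brakes, Smad6 mainly on BMP signals and Smad7 on both branches. Fibroblasts respond to TGF-beta by making extracellular matrix. H3K4me3 lies at active promoters, and H3K4me1 is common at enhancers, where MLL4 (the product of Kmt2d) deposits it.

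Promoter sequences are shown for 3 members to place the H3K4me3 peaks described below. RefSeq promoters (GRCm38.p6, 250 bases before to 50 after a start) were given for 5 of the 8 members, 7 promoters in all with the 3 starts of Smad5, and each is printed 5′ to 3′ on the strand of its gene. They were searched on both strands for the palindromic Smad-binding element GTCTAGAC, the CAGA box AGCCAGACA and the GC-rich Smad-bound sequence GGCGCC. These 3 motifs do not overlap in the promoters printed. The Smad6 promoter is shown because it alone of the 7 holds the palindrome, which spans its start at position -4 and is found in 70 of 32851 promoters, or 0.213%. The promoters of Smad9 and of the first start of Smad5 are shown because they hold GGCGCC, at positions -51 and 24 from the start, a sequence found in 11.9% of promoters. Capitals mark the motif in each.
Smad6 (chr9:64022010-64022309, minus strand): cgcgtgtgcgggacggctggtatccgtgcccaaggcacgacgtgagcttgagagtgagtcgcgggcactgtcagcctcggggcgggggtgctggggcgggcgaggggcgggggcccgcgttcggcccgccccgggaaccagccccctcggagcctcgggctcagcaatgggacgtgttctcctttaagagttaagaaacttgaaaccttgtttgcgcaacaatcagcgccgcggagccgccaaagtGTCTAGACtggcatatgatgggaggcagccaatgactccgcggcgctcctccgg
Smad9 (chr3:54755332-54755631, plus strand): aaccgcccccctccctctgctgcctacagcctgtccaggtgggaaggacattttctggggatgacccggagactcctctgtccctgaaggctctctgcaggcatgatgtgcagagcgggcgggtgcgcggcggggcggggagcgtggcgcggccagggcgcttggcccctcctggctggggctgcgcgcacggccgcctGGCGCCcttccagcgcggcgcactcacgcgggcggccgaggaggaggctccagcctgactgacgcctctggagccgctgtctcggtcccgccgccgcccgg
Smad5 (chr13:56702760-56703059, plus strand): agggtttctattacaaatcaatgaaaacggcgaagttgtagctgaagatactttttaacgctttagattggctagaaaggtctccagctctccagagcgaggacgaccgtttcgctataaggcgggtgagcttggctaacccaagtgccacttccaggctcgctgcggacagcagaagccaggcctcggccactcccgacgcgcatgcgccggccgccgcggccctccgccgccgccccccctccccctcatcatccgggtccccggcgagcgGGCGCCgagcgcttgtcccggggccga
The CAGA box was in none of the 7, against 0.387% of all promoters. All 7 were rich in CpG, with 25 CpGs in that of Smad3, 36 in that of the second Smad5 start and 31 in each of the others, where the median promoter held 7. A value of 31 exceeded 89.4% of promoters in the table. A motif match describes these letters and is not a measured binding site.

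The H3K4me3 libraries held 5519477 and 5938102 filtered fragments in KO, and 11319701 and 6185767 in WT, so WT replicate 1 was much the deepest. The H3K4me3 lists had 10397 and 11281 peaks in KO, and 17460 and 16078 in WT, with median lengths of 540 and 579 bp in KO, and 1218 and 1054 bp in WT. The H3K4me1 libraries were closer to each other, with 13627038 and 12611409 fragments in KO, and 12607690 and 11604131 in WT, and 59908 and 53120 peaks in KO, and 62065 and 56616 in WT. Fbxw7 itself carried 500 and 416 bp of H3K4me3 peaks in KO, and 3935 and 3738 bp in WT. Since the deleted part is not stated, these values do not check the genotype labels. All 7 fibroblast markers (Col1a1, Col1a2, Col3a1, Thy1, Pdgfra, Pdgfrb, Vim) had an H3K4me3 peak in both WT libraries, and 3 of them in both KO libraries. Of 6 blood, endothelial and epithelial markers, 4 (Ptprc, Pecam1, Cdh5, Cdh1) had none in any library, Spi1 had one in the WT libraries only, and Epcam had one in WT replicate 1.

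H3K4me3 peaks covered fewer bases over every Smad gene in each KO library than in each WT library. Summed over the 8 genes, peaks covered 3790 and 2569 bp in KO, against 17884 and 13505 bp in WT, with means of 3179.5 ± 863 bp in KO and 15694.5 ± 3100 bp in WT (SD, n = 2 libraries each), a log2 ratio of -2.30. This direction was general: of 13272 genes with an H3K4me3 peak in any library, 93.5% were lower in both KO libraries and 0.0301% were higher. On the log2 scale with 100 bp added, the median difference was -1.9 over the 8 members (from -4.4 to -1.2) and -1.32 over all 13272 genes. A smaller covered length can come from fewer cells carrying the mark or from less of it per cell, and these cannot be told apart here. Depth, list length and peak length, given above, differ between the genotypes in the same direction, though WT replicate 2 was near the KO libraries in depth. With every list cut to the same length, the log2 ratio of the sum was -1.81. The parts of depth and peak length in the result were not tested.

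**Figure D1:**
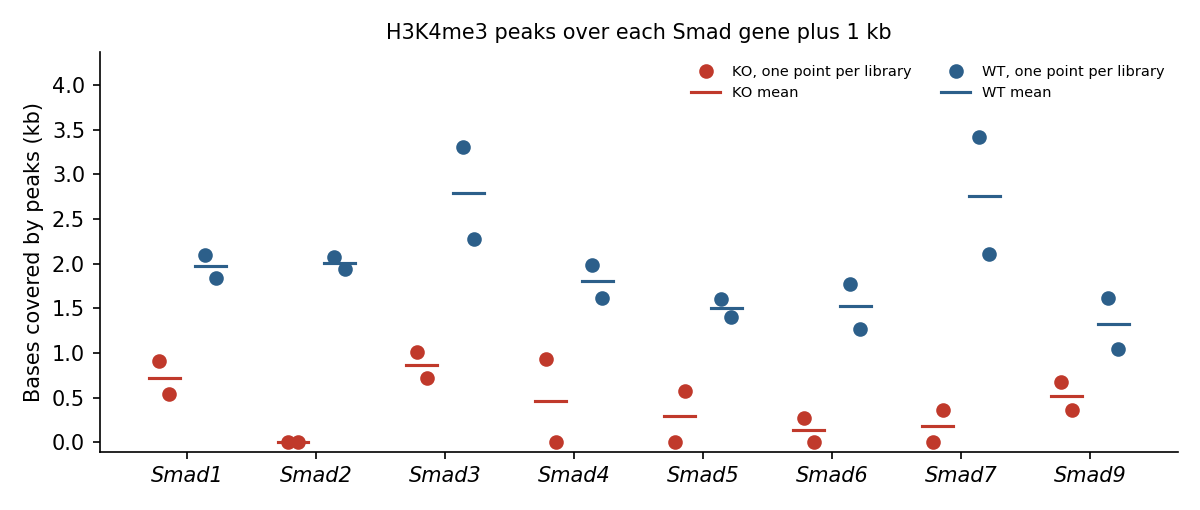
Bases covered by H3K4me3 peaks (kb) over each Smad gene plus 1 kb, with 1 point per library, KO in red and WT in blue, and bars at the mean of 2 libraries. The KO points of each gene lie below its WT points, and Smad2 is at 0 in both KO libraries.

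By presence alone, 5 members had an H3K4me3 peak in each KO library and all 8 had one in each WT library. Smad1, Smad3 and Smad9 had one in all 4 libraries, as 68.1% of the 13272 genes did. Smad2 had one in both WT libraries and in neither KO library, and 12.6% of genes shared that pattern. No member had one in the KO libraries only, against 0.0% of genes. The remaining members, Smad4, Smad5, Smad6 and Smad7, each had a peak in 1 of the KO libraries and in both WT libraries. Smad4 and Smad6 had theirs in KO replicate 1, while Smad5 and Smad7 had theirs in KO replicate 2. No share over all genes was computed for this pattern or for presence in each single library. These counts are therefore not read as a trait of the members.

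Among the BMP-branch Smads, H3K4me3 at Smad1 (mm10, chromosome 8, 79338395 to 79399428, minus strand) covered 905 and 543 bp in KO, against 2096 and 1842 bp in WT. Its log2 ratio was -1.44, and 49.7% of genes had a lower shift on the scale with 100 bp added, which places Smad1 at the middle of all genes. In WT the peak was continuous, running from -286 to 1809 bp of the annotated start in WT replicate 1 (positive values are inside the gene) and from 37 to 1878 bp in WT replicate 2. The KO peaks were short pieces inside that stretch, at 7 to 349 bp and 966 to 1527 bp in KO replicate 1 and at 842 to 1384 bp in KO replicate 2. All 4 libraries merged into 1 region, 79397550 to 79399714. The best Smad1 peak by −log10 q was above 51.4% and 80.2% of peaks in the KO lists and above 76.8% and 72.7% in the WT lists. The lists differ in length, so these ranks cannot show whether the peak changed.

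Smad5 (chromosome 13, 56703010 to 56742378, plus strand) had 0 and 579 bp of H3K4me3 in KO, against 1610 and 1406 bp in WT. The log2 ratio of the means was -2.38, with 25.6% of genes lower. The KO bases came from 2 peaks of KO replicate 2, at 558 to 868 bp and 1172 to 1439 bp, within the region 56703008 to 56704695 that both WT libraries covered. Of its 3 annotated starts, the third, at the promoter window 56703418 to 56703717, was covered in KO replicate 2 and in both WT libraries, while the first, whose sequence is printed above, was covered in WT replicate 2 alone.

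Smad9 (chromosome 3, 54755455 to 54801662, plus strand) had the smallest shift of the 8, with 674 and 366 bp in KO, against 1614 and 1041 bp in WT, a log2 ratio of -1.35. On the scale with 100 bp added, 55.7% of genes had a lower shift. All 4 libraries had peaks in the region 54755554 to 54756794, just inside the gene: at 26 to 377 bp and 700 to 1021 bp in KO replicate 1, 17 to 382 bp in KO replicate 2, -28 to 1212 bp in WT replicate 1 and 4 to 1044 bp in WT replicate 2. The GGCGCC of its promoter lay upstream of every one of these peaks. WT replicate 1 had a further peak of 373 bp deeper in the gene, which its total counts.

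In the TGF-beta and activin branch, Smad2 (chromosome 18, 76241090 to 76311748) was the member without an H3K4me3 peak in KO, at 0 and 0 bp, against 2080 and 1940 bp in WT. Only 0.716% of genes had a lower shift on the scale with 100 bp added. No strand was given for Smad2, Smad4 or Smad7, so their positions are counted from the gene end that carries H3K4me3. In WT the Smad2 signal was a pair of peaks on either side of a gap, in the regions 76240769 to 76241586 and 76242237 to 76243498. The best of them ranked above 63.9% of peaks in WT replicate 1 and above 44.8% in WT replicate 2, so these were not among the weakest peaks of their lists. When every H3K4me3 list was cut to the same length by −log10 q, Smad2 was still the only member present in both WT libraries and neither KO library, and 3.46% of 11574 genes had that pattern.

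Smad3 (chromosome 9, 63646766 to 63757994, minus strand) had 1007 and 721 bp in KO, against 3304 and 2274 bp in WT, the largest covered length of the 8 in each KO library. Its log2 ratio was -1.69, with 39.0% of genes lower on the scale with 100 bp added. The WT peaks ran from -1109 to 1928 bp in WT replicate 1, and lay at -780 to -369 bp and 53 to 1914 bp in WT replicate 2. The KO peaks were all inside the gene, at 677 to 1287 bp and 1592 to 1987 bp in KO replicate 1 and at 120 to 422 bp and 671 to 1088 bp in KO replicate 2, so no KO peak lay on the upstream side. These peaks fell in the region 63756007 to 63759103, and WT replicate 1 alone had a further peak of 375 bp inside the gene, at 63746004 to 63746378, which its total counts.

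The common partner Smad4 (chromosome 18, 73634790 to 73703791) had 928 and 0 bp in KO, against 1990 and 1620 bp in WT, a log2 ratio of -1.96. KO replicate 1 had a peak in both of the regions that WT held, 73701823 to 73703131 inside the gene and 73703902 to 73704582 just beyond its end, while KO replicate 2 had neither. The KO libraries thus lay farther from each other than the WT libraries did. The better of these KO peaks had a −log10 q of 4.42, where the best WT peaks of Smad4 had 24.8 in WT replicate 1 and 18.1 in WT replicate 2, values that also follow depth. At equal list lengths the Smad4 difference of -1341 bp between the genotype means shrank to -346 bp. A peak was then left in KO replicate 1 and WT replicate 2 but not in WT replicate 1.

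The inhibitory Smads had the lowest ratios among the members with any KO peak. Smad6 (chromosome 9, 63953076 to 64022085, minus strand) had 276 and 0 bp in KO, against 1774 and 1271 bp in WT, a log2 ratio of -3.46, with 13.4% of genes lower on the scale with 100 bp added. In WT its peaks sat on both sides of the start, at -856 to -257 bp and 14 to 895 bp in WT replicate 1 and at -834 to -420 bp and 0 to 855 bp in WT replicate 2. Most of the printed 300-base promoter, which holds the palindrome at its start, therefore lay in the gap, with 36 and 50 of its bases under a WT peak and 0 under a KO peak. The upstream region, 64022316 to 64022915, was held by both WT libraries and neither KO library. The downstream one, 64021164 to 64022059, was also held by KO replicate 1 through a single 276 bp peak. When all lists were cut to the same length, the Smad6 difference of -1384.5 bp between the genotype means shrank to -290 bp, with a peak left in KO replicate 1 and WT replicate 2 but not in WT replicate 1.

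Smad7 (chromosome 18, 75367365 to 75395935) had 0 and 360 bp in KO, against 3416 and 2111 bp in WT, a log2 ratio of -3.94, with 6.71% of genes lower on the scale with 100 bp added. Its WT signal was split into 6 and 5 peaks, where no other member had more than 3. These were low in their lists, the best ranking above 29.1% of peaks in WT replicate 1 and above 26.3% in WT replicate 2, and the one KO peak ranked above 1.53% of its list. Regions held by both WT libraries and neither KO library were 75366367 to 75366961, 75370542 to 75370976 and 75373025 to 75373586. The region 75367577 to 75368218, 212 to 853 bp inside the gene, was shared with KO replicate 2. When all lists were cut to the same length, Smad7 had no H3K4me3 peak in any library. At a −log10 q of at least 10 it kept peaks in both WT libraries and neither KO library, a pattern found in 63.1% of genes. The difference between the genotype means was then -981 bp. The part of list length in its low ratio was not tested.

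**Figure D2:**
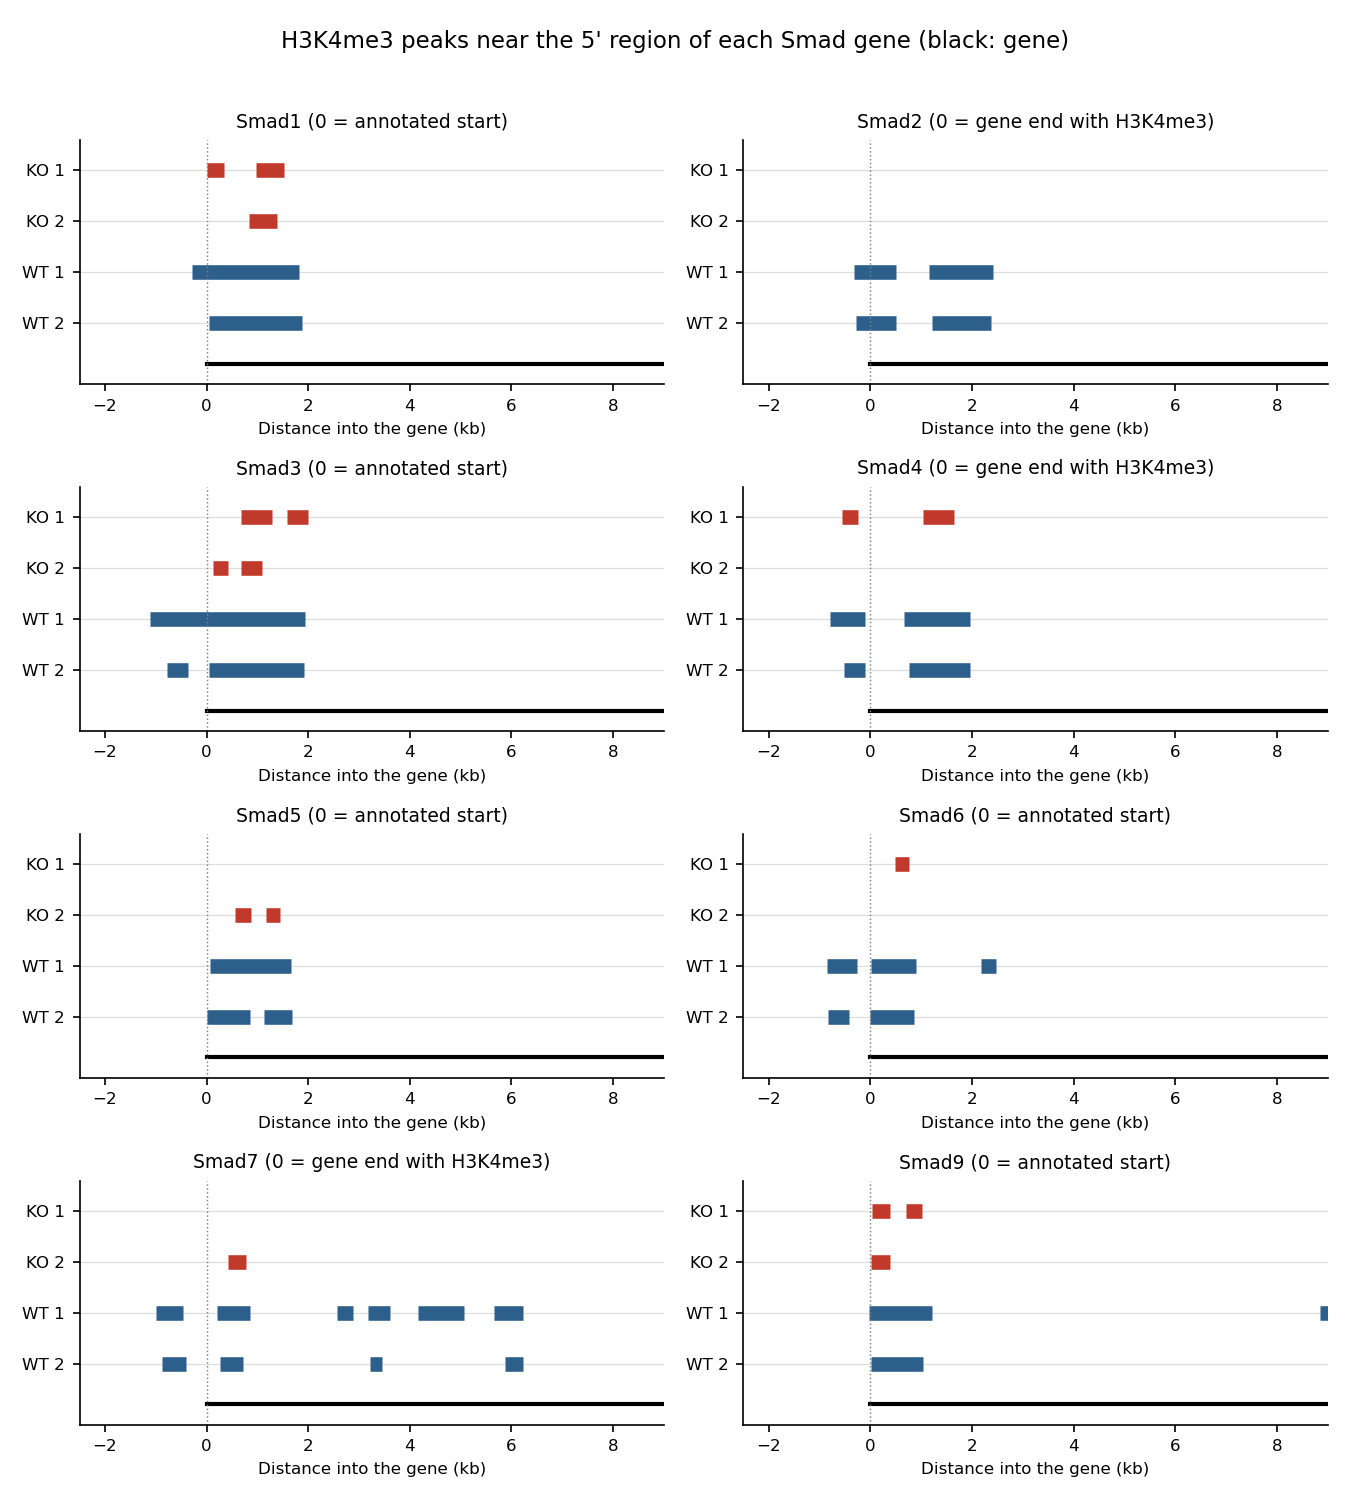
H3K4me3 peaks as bars by library (KO in red above WT in blue), by distance in kb from the annotated start or, where no strand was given, from the gene end that carries H3K4me3; the black line is the gene. KO bars are shorter and lie mostly inside the stretches that WT bars cover, Smad2 has no KO bar, and Smad7 has 6 bars in WT replicate 1, spread from -998 to 6221 bp. Peaks of Smad3, Smad7 and Smad9 held by 1 WT library each lie past or at the right edge.

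Merging the 4 lists gave 20 H3K4me3 regions over the 8 genes. Of these, 3 (15.0%) were held by all 4 libraries and 6 (30.0%) by both WT libraries and neither KO library, while none was held by the KO libraries only. Over all 17842 H3K4me3 regions the shares were 46.8%, 21.7% and 0.056%. The 6 WT-held regions were the 2 of Smad2, 1 of Smad6 and 3 of Smad7 given above. A further 6 regions were in a single library, each time a WT one, a count without a share over all regions beside it. The count of members present in WT only moved with the threshold. It was 6 of 8 (all but Smad1 and Smad3) when a peak needed a −log10 q of at least 10, a pattern found in 63.1% of genes, and 3 (Smad2, Smad6 and Smad7) when a gene needed at least 500 covered bp, found in 25.4%. With KO replicate 1 left out it was 3 (Smad2, Smad4 and Smad6), and with KO replicate 2 left out it was also 3 (Smad2, Smad5 and Smad7). Leaving out a KO library makes this pattern easier to meet for any gene. The share over all genes was not computed for it, so these counts are not read as a trait of the members.

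In H3K4me1 over the same genes the genotypes lay closer together. Summed over the 8 genes plus 1 kb, H3K4me1 peaks covered 14621 and 12349 bp in KO, against 17977 and 15542 bp in WT, with means of 13485 ± 1610 bp in KO and 16759.5 ± 1720 bp in WT (SD, n = 2 libraries each), a log2 ratio of -0.31. Only Smad4 and Smad6 were lower in each KO library than in each WT library, as 26.0% of 12778 genes with an H3K4me1 peak were. No member was higher in both KO libraries, against 12.4% of genes, and 6 overlapped or had no peak. On the log2 scale with 100 bp added, the median over the 7 members with a peak was -0.26 (from -1.72 to 0.57), and that over all 12778 genes was -0.20. A peak was present in all 4 libraries over 6 members, a pattern of 51.8% of genes, and no member was present in WT only or KO only, patterns of 4.7% and 2.75% of genes.

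Smad6 had the largest difference in H3K4me1 bases of the 8. Its peaks covered 1672 and 2446 bp in KO, against 4112 and 4624 bp in WT, with means of 2059 ± 547 bp in KO and 4368 ± 362 bp in WT (SD, n = 2 libraries each) and a log2 ratio of -1.09. The groups did not overlap, the exact two-sided permutation p was 0.333, the smallest possible, and 21.3% of genes had a lower shift on the scale with 100 bp added. The gene carried 3 and 4 H3K4me1 peaks in KO, against 6 and 5 in WT, and some of the sites that all 4 libraries held also had fewer covered bases in KO. The region 64017334 to 64019152, 2907 bp inside the gene from its start, had 509 and 366 bp in KO, against 1175 and 1668 bp in WT. A region near the far end of the gene, 63958753 to 63960823, had 328 and 640 bp in KO, against 1078 and 1222 bp in WT. The third site shared by all 4, 63979437 to 63980896, overlapped between the genotypes at 835 and 1167 bp in KO, against 1098 and 1259 bp in WT. Smad6 was thus low in KO for both marks, though not at the same bases, since none of its H3K4me1 bases lay inside its H3K4me3 regions.

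Smad4 had little H3K4me1 in any library, at 0 and 264 bp in KO, against 1049 and 281 bp in WT. Its groups were apart only by a few bases, and at equal list lengths neither WT library kept a peak, so the order turned. Smad3 had the most H3K4me1 of the 8, with 7288 and 5178 bp in 12 and 11 peaks in KO, against 7614 and 5427 bp in 11 and 10 peaks in WT, and the genotypes overlapped. Smad1 was also close in both, at 1839 and 2618 bp in KO, against 2040 and 2450 bp in WT. Smad2 had 1649 and 870 bp in KO, against 1261 and 375 bp in WT. Smad5 had 1294 and 381 bp in KO, against 1227 and 1252 bp in WT. Smad7 had 879 and 592 bp in KO, against 674 and 1133 bp in WT. In these last 3 genes the 2 libraries of a genotype differed by more than the means of the genotypes, except that the WT libraries of Smad5 lay close together. Smad9 had no H3K4me1 peak over the gene in any library.

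**Figure D3:**
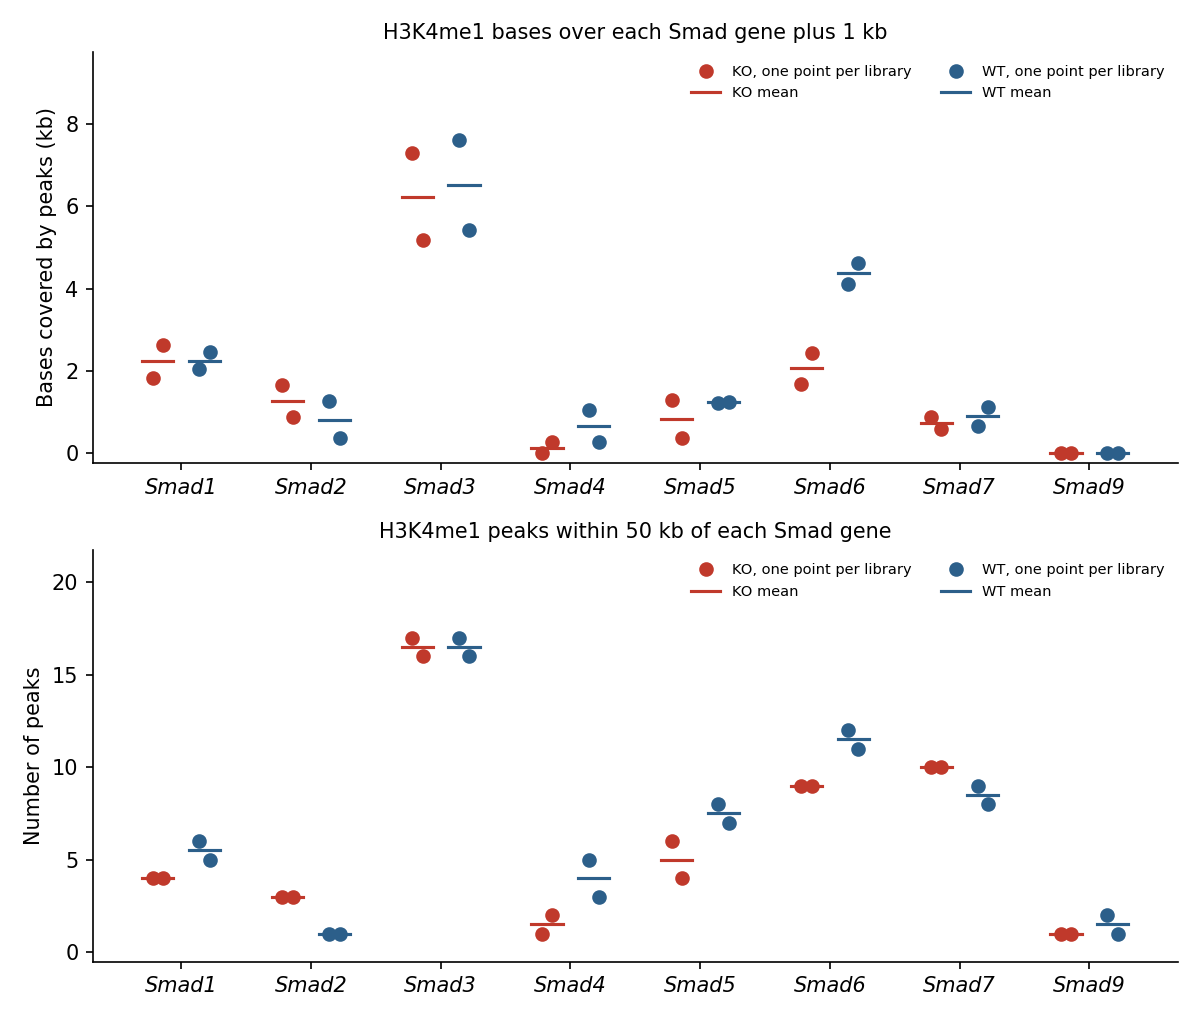
Bases covered by H3K4me1 peaks (kb) over each Smad gene plus 1 kb (upper panel) and number of H3K4me1 peaks within 50 kb of it (lower panel), with 1 point per library, KO in red and WT in blue, and bars at the mean of 2 libraries. Smad3 has the highest values in both panels at similar levels in KO and WT, and the Smad6 points are apart by genotype in both.

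The number of H3K4me1 peaks within 50 kb of the 8 genes was 51 and 49 in KO, against 60 and 52 in WT, with means of 50 ± 1.41 in KO and 56 ± 5.66 in WT (SD, n = 2 libraries each) and a log2 ratio of -0.16. Counts were lower in both KO libraries at 4 members, as at 19.5% of 18416 genes, and higher in both at 2, as at 8.51%. The 4 lower were Smad1 (4 and 4 peaks in KO, 6 and 5 in WT), Smad4 (1 and 2 in KO, 5 and 3 in WT), Smad5 (6 and 4 in KO, 8 and 7 in WT) and Smad6 (9 and 9 in KO, 12 and 11 in WT). The 2 higher were Smad2 (3 and 3 in KO, 1 and 1 in WT) and Smad7 (10 and 10 in KO, 9 and 8 in WT), although within 100 kb the mean of Smad7 was lower in KO by 3 peaks. Smad3 (17 and 16 in KO, 17 and 16 in WT) and Smad9 (1 and 1 in KO, 2 and 1 in WT) overlapped. The higher counts did not come with a region held by both KO libraries and neither WT library. At Smad2, 4 of its 5 regions were each held by a single KO library, and only 76253658 to 76254937 was in all 4 libraries. However, 76283369 to 76283692 in KO replicate 2 and 76283868 to 76284419 in KO replicate 1 were neighbours that shared no base, so KO peaks of both libraries lay near this place. At Smad7 the peaks were more numerous but shorter, since their summed length was 5788 and 4546 bp in KO, against 6848 and 6304 bp in WT. Over the 8 windows the summed length was 31989 and 28303 bp in KO, against 43141 and 35593 bp in WT, a log2 ratio of -0.39.

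Smad3, Smad6 and Smad7 stood in the regions densest in H3K4me1. Per 100 kb of window, Smad3 had 8.05 and 7.57 peaks in KO and 8.05 and 7.57 in WT, above 98.2% and 98.7% of genes in KO and above 97.2% and 97.5% in WT. Smad7 had 7.78 and 7.78 in KO and 7.0 and 6.22 in WT, above at least 93.4% of genes in every library. Smad6 had 5.33 and 5.33 in KO and 7.1 and 6.51 in WT. The median gene had 2.25 and 1.9 in KO and 2.56 and 2.17 in WT. Smad9 and Smad2 were below that median in each library, Smad9 at 0.684 and 0.684 in KO and 1.37 and 0.684 in WT, and Smad2 at 1.76 and 1.76 in KO and 0.586 and 0.586 in WT.

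Merging the H3K4me1 lists gave 80 regions in these windows, 41 inside a Smad gene, 31 between genes and 8 inside another gene. All 4 libraries held 30 of them (37.5%), against 28.7% of all 94400 H3K4me1 regions, and these were spread as 10 of 24 at Smad3, 8 of 12 at Smad6, 6 of 13 at Smad7, 2 of 9 at Smad5 and 1 at each of the others. Only 3 (3.75%) were held by both WT libraries and neither KO library, against 6.63% of all regions, and 2 (2.5%) by both KO libraries and neither WT library, against 5.37%. The WT-held ones were 79382710 to 79383479 inside Smad1, and 56654036 to 56654723 and 56765742 to 56766708 on either side of Smad5, between genes. The KO-held ones were 63672528 to 63673248 inside Smad3 and 56722210 to 56722745 inside Smad5. None of the 5 had a percentile above 49.7 in the weaker of the libraries that held it. The Smad5 site began just past a region, 56721135 to 56722168, that KO replicate 1 and both WT libraries held, so peaks lay at this place in both genotypes.

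Of the 30 regions in all 4 libraries, 11 covered fewer bases in each KO library than in each WT library and 1 covered more, where the shares over all 27093 such regions were 24.5% and 16.4%. Smad7 had 4 of the 11, all outside the gene. The farthest of these, 75318794 to 75320214, had 836 and 689 bp in KO, against 1196 and 1418 bp in WT, and its neighbour 75324691 to 75325954 had 666 and 383 bp in KO, against 1099 and 1204 bp in WT. Smad3 had 3, among them 63754640 to 63755573, which lies 2421 bp inside the gene from its start and had 354 and 379 bp in KO, against 859 and 764 bp in WT. Smad6 had 2, given above, and Smad1 and Smad9 had 1 each. The single region with more bases in KO was 63779789 to 63781018, upstream of Smad3 between genes, with 1113 and 979 bp in KO, against 586 and 588 bp in WT. The strongest H3K4me1 site of Smad5, 56696697 to 56698938, which ends at -4072 bp from the first start, overlapped between genotypes at 1992 and 1776 bp in KO, against 2093 and 1076 bp in WT.

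**Figure D4:**
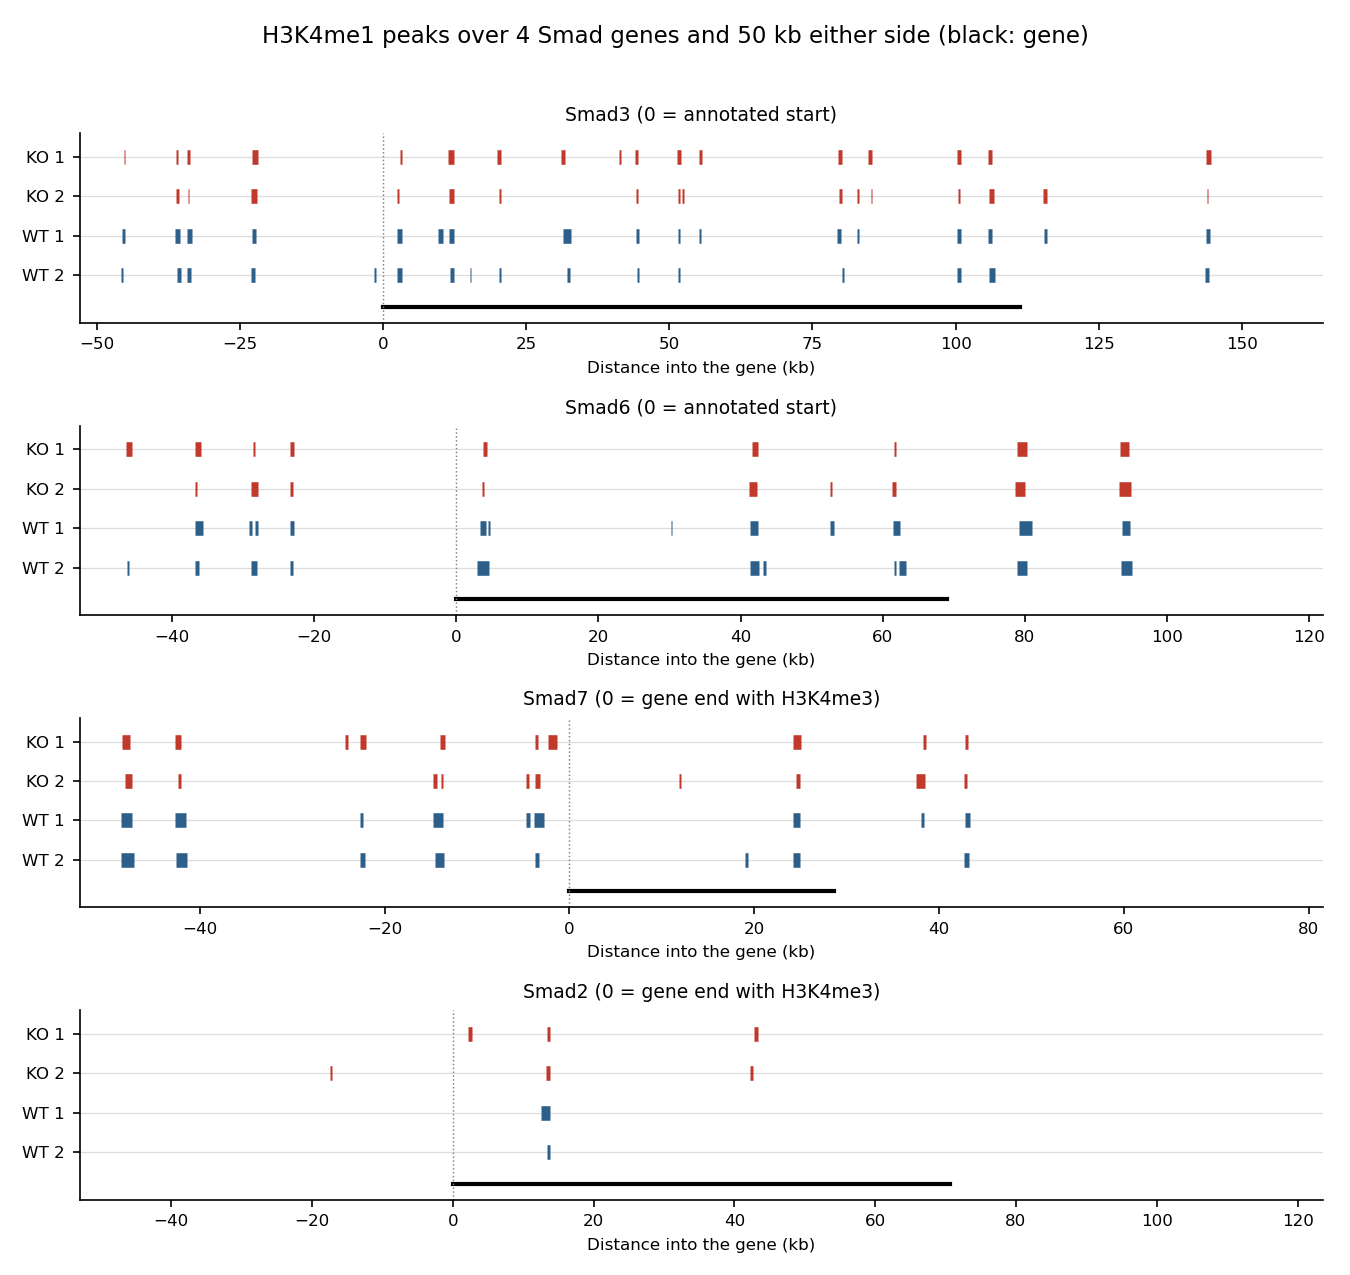
H3K4me1 peaks as bars by library (KO in red above WT in blue) over Smad3, Smad6, Smad7 and Smad2 and 50 kb on either side, by distance in kb from the annotated start or the H3K4me3-bearing gene end; the black line is the gene. Most bars of Smad3, Smad6 and Smad7 recur in both genotypes, whereas at Smad2 a single position recurs in all 4 libraries.

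H3K4me1 peaks covered few bases of the H3K4me3 regions, which were merged over all 4 libraries. H3K4me1 peaks covered 375 bp of the H3K4me3 regions of Smad3 in each of the 4 libraries, all in a region of the same length inside the gene where WT replicate 1 alone had an H3K4me3 peak. At Smad7 the H3K4me1 bases in such regions were 585 and 264 in KO, against 585 and 585 in WT. All lay in 75391607 to 75392191, where WT replicate 2 alone had an H3K4me3 peak. At Smad2 they were 180 in KO replicate 1 and 0 elsewhere, in a region with H3K4me3 peaks in the WT libraries only. At the other 5 members they were 0. The bases counted in KO therefore do not show both marks in a KO library. No library had an MLL4 peak within 50 kb of any Smad gene, but the MLL4 lists were short, with 49 and 40 peaks in KO and 60 and 69 in WT over the genome.

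A list of 32 other genes of the pathway held 13 receptors, 12 regulators and 7 targets. For H3K4me3, all 32 had a peak in at least 1 library, 19 in all 4, 8 in both WT libraries and neither KO library, and none in KO only, patterns of 68.1%, 12.6% and 0.0% of all genes. Covered bases were lower in both KO libraries at 31 of 32, against 93.5% of all genes, the exception being the receptor Acvr1c, where WT replicate 1 had 962 bp and the other 3 libraries had 0. By role, 4 of 13 receptors were in WT only, among them Tgfbr1, the type I TGF-beta receptor whose kinase phosphorylates Smad2 and Smad3, with 0 and 0 bp in KO, against 2093 and 2026 bp in WT. The others were Acvrl1, Bmpr1b and Eng. Of the regulators, 1 of 12 was in WT only. Of the targets, 3 of 7 were, among them Tgfbi, which encodes a matrix protein, with 0 and 0 bp in KO, against 1156 and 673 bp in WT. For H3K4me1, 28 of the 32 had a peak, 6 were lower in both KO libraries and 3 were higher, against 26.0% and 12.4% of all genes, and none was in WT only or KO only, against 4.7% and 2.75%.

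For each member the gene most like it was the one at the smallest distance in log2(covered bp + 100) over the 8 histone libraries. These were Mark1 for Smad1 (distance 0.552), Trdmt1 for Smad2 (0.866), Tbc1d1 for Smad3 (0.415), Serbp1 for Smad4 (1.08), Pitpnm1 for Smad5 (0.57), Pkn2 for Smad6 (0.79), Ubtf for Smad7 (0.531) and 1700065D16Rik for Smad9 (0.167). Trdmt1, like Smad2, had 0 and 0 bp of H3K4me3 in KO, against 1846 and 1457 bp in WT. Pkn2, like Smad6, was low in KO for both marks, with 1828 and 2253 bp of H3K4me1 in KO, against 3582 and 3132 bp in WT. Both genes were picked on these same values, so the shared pattern follows from the choice. The chromosomes of the members held near the same share of H3K4me1 peaks in both genotypes, with KO to WT ratios from 0.944 for chromosome 3 to 1.03 for chromosome 8.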

How the data were processed

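Per the file headers, the authors ran MACS2 separately on every library, with a q cutoff of 0.01, a local background over 10000 bp and no control library. Per the submitters' processing notes, the build was mm10. Duplicates were limited to 1 fragment per position, or to 2 in the H3K4me1 lists and in H3K4me3 WT replicate 1, per the file headers. Each deposited list gives a pileup signal, −log10 p, −log10 q and a fold ratio over the local background. They are the authors' own peak values, depend on depth, and served here only to rank or filter peaks within a list. A site with no peak in a library fell short of the cutoff there and may still carry the mark.

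Depth is the number of filtered fragments in the headers. Python 3.11.15 with pandas 2.3.3 counted peaks and covered bases over each gene plus 1 kb and within 50 kb, with gene positions taken from RefSeq (GRCm38.p6, the assembly behind mm10). Exons were not given, so exons and introns are not told apart. Peaks of a mark sharing at least 1 bp were merged into regions. The overlap code was tested on simulated peaks. All 8 members are named; regions and genes followed fixed rules (H3K4me3 regions in 2 or more libraries, H3K4me1 regions held by 1 genotype only, the nearest gene by distance), and the H3K4me1 regions in all 4 libraries and Acvr1c were named after their values were seen. Members, lists and tests were chosen with earlier results of these data known. Per-member values were compared by exact two-sided permutation tests over 6 assignments of 4 libraries. Alternatives were equal list lengths, a −log10 q of at least 10, other windows, other measures, a replicate block and each library left out. 1 listed gene is not reported here by name.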

Additional observations from a re-analysis of the deposited data

How the results depend on the processing

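The log2 KO to WT ratio of H3K4me3 bases over the 8 genes, -2.30, stayed below 0 in every alternative run. It was -1.81 at equal list lengths, -4.80 at a −log10 q of at least 10 and -1.17 by number of peaks, and ranged from -2.61 to -2.05 with each library left out. The count of Smad genes with H3K4me3 in WT only, 1, was 6 at a −log10 q of at least 10, 3 at 500 covered bp or more, and 1 to 3 with each library left out. For H3K4me1 bases over the genes, the ratio of -0.31 was -1.05 at a −log10 q of at least 10 and -0.086 by number of peaks, and ranged from -0.44 to -0.20 with each library left out. Within 1 kb of the starts it gave no value, because no library of either genotype had an H3K4me1 peak there. For H3K4me1 peaks within 50 kb, the ratio of -0.16 was -0.83 at a −log10 q of at least 10, -0.39 by covered bases, -0.044 at equal list lengths, -0.064 within 20 kb and -0.27 within 100 kb, and ranged from -0.26 to -0.06 with each library left out. The 5 H3K4me1 regions held by 1 genotype only were 1 at a −log10 q of at least 10, 3 within 20 kb, 14 within 100 kb, 13 when peaks had to cover at least 50% of a region, and 13 to 18 with each library left out. The causes were not tested. Replicate numbers are only labels here, since a check for pairing by number gave correlations of 0.033 (H3K4me3) and -0.005 (H3K4me1) across genes. That check concerns the pairing and does not measure how alike whole libraries were. With a replicate block the 3 ratios were -2.32, -0.32 and -0.16, and no direction changed. By member, the sign of the H3K4me3 difference held in 63 of 64 alternatives, the other being Smad7 at 0. For H3K4me1 bases the sign held in 42 of 64. It turned in 11, at each of Smad1, Smad2, Smad3, Smad4, Smad5 and Smad7 and not at Smad6. In the other 11 the main or the alternative value was 0. For peaks within 50 kb the sign held in 52 of 64 and turned in 1, at Smad7, where KO minus WT was -3.0 within 100 kb. The other 11 again had a value of 0, among them those of Smad3, whose main difference was 0. With 2 libraries a genotype, no difference can pass the exact permutation test, and a weak site can be missed in a shallower library.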
